A study of Rattus norvegicus with 4 samples.

Results

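The TRIM genes form a family of ubiquitin ligases, and 50 of them were followed here in heart muscle cells of newborn rats treated with carfilzomib, a proteasome inhibitor given in multiple myeloma. The members were all rows of the expression table, 50 of 18699, whose symbol is Trim followed by a number and at most 1 letter. Trim54, Trim55, Trim63 and Trim72, the 4 members known mainly from striated muscle, were left out by the rule. Ventricular myocytes of wild-type Sprague Dawley pups of 1 to 3 days of age were grown in 15% serum with 0.1 mM bromodeoxyuridine against dividing non-muscle cells, which all 4 libraries share. The cells received vehicle or 1 µM carfilzomib for 24 h, with 2 libraries per group. Totals ranged from 18655499 to 18884362 estimated counts per library, and members took 0.14% to 0.147% of them. The labels do not tell whether replicate libraries stem from different animals or dishes, so p-values reflect only how far these libraries differ, a spread that may be technical.

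The name TRIM stands for the tripartite motif, a RING finger, 1 or more B-boxes and a coiled coil in a row. The RING finger recruits an E2 enzyme charged with ubiquitin, the coiled coil pairs the protein with a partner, and the domain at the C-terminal end chooses the substrate. Members take part in antiviral defence, selective autophagy, gene silencing, the cytoskeleton and protein quality control. Most proteins they mark for degradation end in the proteasome, which carfilzomib blocks.

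With vehicle, the family spanned a wide range of levels per gene length. FPKM, a fragment count scaled to gene length and library size, is the scale that allows one gene to be compared with another. In the mean of the 2 vehicle libraries 15 members reached 10 FPKM or more, 16 lay from 1 to 10 FPKM and 19 lay under 1 FPKM. Trim28, the corepressor KAP1 that silences genes through KRAB zinc finger proteins, stood first at 115.92 and 121.58 FPKM. Trim47 followed at 49.42 and 59.66 FPKM and Trim35 at 36.16 and 35.59 FPKM. Next in order were Trim8, which acts in cytokine signalling, with a mean of 31.0 FPKM, and Trim27 with 29.9 FPKM; the vehicle libraries of Trim8 and Trim27 overlap, and both genes lie below Trim35. With carfilzomib Trim28 was still first, at 95.75 and 93.88 FPKM, and the means of Trim35 and Trim47 were 41.5 and 40.8 FPKM. Their treated libraries overlap, with 42.09 and 40.97 FPKM for Trim35 and 42.92 and 38.66 FPKM for Trim47. Trim37 moved from rank 12 to rank 6 and Trim2 from rank 21 to rank 15 in the order of mean FPKM.

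**Figure D1:**
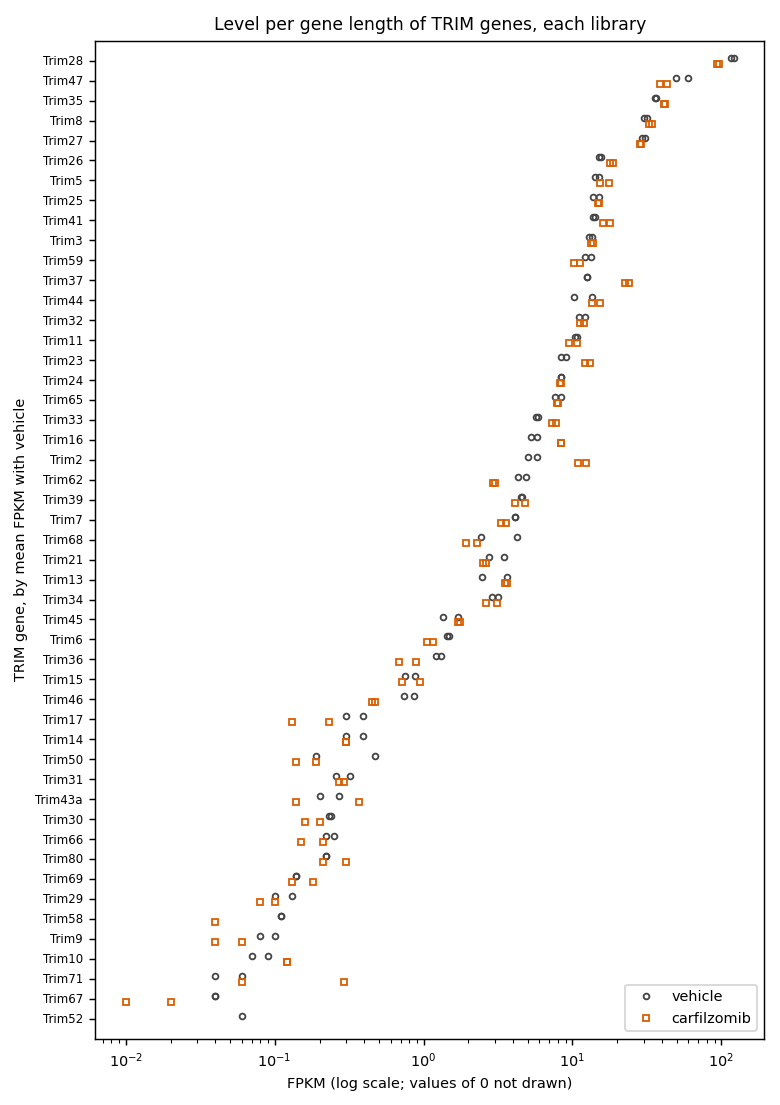
FPKM of TRIM genes in each of the 4 libraries on a log axis, ordered by the mean with vehicle; circles are vehicle, squares carfilzomib, and values of 0 are not drawn. The 49 genes with a vehicle value above 0 run from Trim28 at over 100 FPKM to genes far below 1 FPKM, and for most genes the 4 points lie close together.

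Summed over all members, the family's level hardly differed between the groups. The summed CPM, counts scaled to library size after TMM normalisation, was 1418 and 1452 with vehicle and 1457 and 1451 with carfilzomib, and the ranges overlap. Trim28 made up 24.5% of that sum with vehicle and 18.8% with carfilzomib. Without Trim28 the sum was 1075 and 1092 CPM with vehicle and 1180 and 1180 CPM with carfilzomib, so the treated libraries were the higher ones.

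With carfilzomib single TRIM genes were called in both directions, most of them with small changes. Of the 38 members with enough counts to be tested, 8 rose, 10 fell and 20 did not pass. The threshold was 0.05 on the Benjamini-Hochberg adjusted p of edgeR's quasi-likelihood test over 14519 genes. The 18 called members are 47.4% of those tested, against 60.7% of all tested genes. Members that rose made up 21.1% against 30.6% of all genes, and members that fell 26.3% against 30.1%. Trim2 was the 1 member called with a change of at least 2-fold, 2.63% of those tested against 11.1% of all genes. The groups did not overlap in CPM for 23 members, 60.5%, against 79.9% of all tested genes. The median log2 fold change of the members was -0.06 and that of all genes 0.00; the median absolute value was 0.25 for members and 0.34 for all genes. All fold changes are carfilzomib over vehicle. In bulk RNA, fewer cells of a type and less RNA per cell cannot be told apart.

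**Figure D2:**
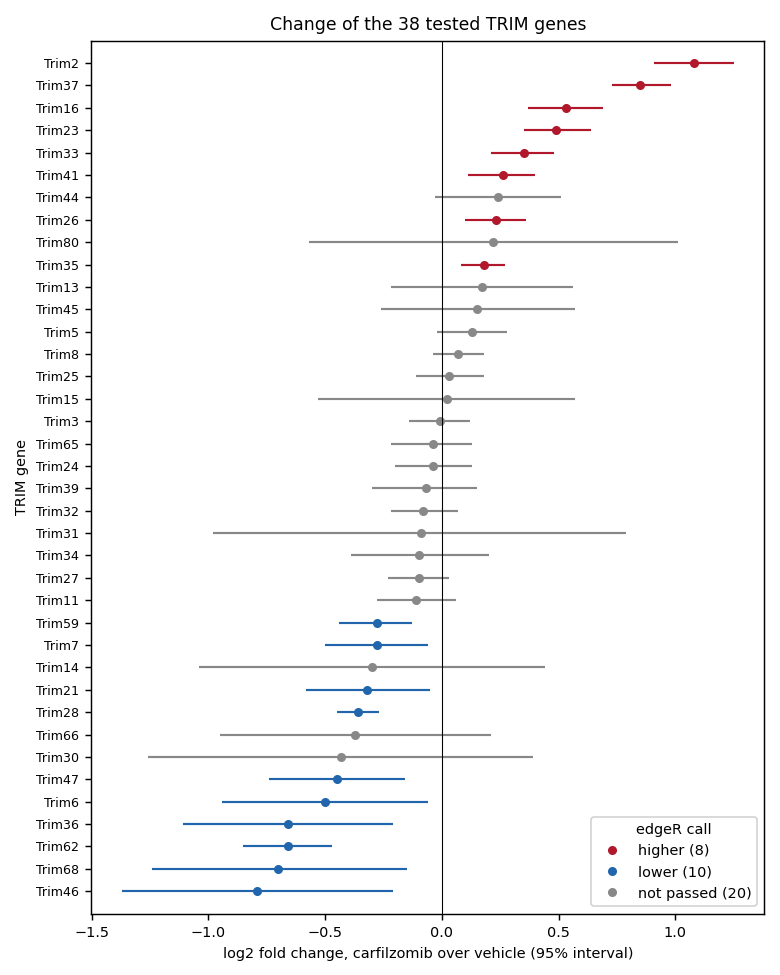
Log2 fold change of the 38 tested TRIM genes, carfilzomib over vehicle, with 95% intervals from the edgeR fit; red marks genes called higher, blue genes called lower and grey genes that did not pass. The changes run from -0.79 for Trim46 to 1.08 for Trim2, and the widest intervals belong to genes of low level such as Trim30 and Trim31.

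Markers of several cell types moved in the same libraries. All 8 cardiomyocyte markers fell, and their summed level went from 25194 and 25128 CPM with vehicle to 6308 and 6109 CPM with carfilzomib. The falls were uneven, with log2 fold changes from -3.79 for Myh6 to -0.36 for Tnnt2. Most of the drop in the sum came from Myh6, from a mean of 9814 to 711 CPM, and Actc1, from 8468 to 1135 CPM. All 8 fibroblast markers fell, from sums of 27667 and 28225 CPM to 15503 and 14779 CPM, and all 6 smooth muscle markers, from 3872 and 4014 CPM to 1372 and 1330 CPM. Of 7 macrophage markers 5 were tested and fell, with sums of 40.7 and 44.4 CPM against 23.7 and 22.8 CPM; Cd163 and C1qa were too low to be tested, and Cd163 was at 0 with carfilzomib. Of 6 endothelial markers 1 rose, 2 fell and 3 did not pass; their sums were 61.8 and 62.5 CPM against 62.4 and 61.2 CPM. The part of these shifts in the changes of the TRIM genes was not tested.

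Promoters were read for 41 of the 50 members from RefSeq (GRCr8), each from 250 bases before to 50 bases after the start of the gene. They are shown for 6 members whose changes are described next: Trim2 and Trim37, the largest rises, and 4 members that hold 1 of 2 stress-related motifs, of which 1 rose and 1 fell for each motif. The first motif was the antioxidant response element, written TGACNNNGC, to which NFE2L1 and NFE2L2 bind. The second was the interferon-stimulated response element, written GAAA, any 2 bases and GAAA again. Both were searched on both strands, and capitals mark the matches.
Trim2, GRCr8 chr2:171862395-171862694, minus strand: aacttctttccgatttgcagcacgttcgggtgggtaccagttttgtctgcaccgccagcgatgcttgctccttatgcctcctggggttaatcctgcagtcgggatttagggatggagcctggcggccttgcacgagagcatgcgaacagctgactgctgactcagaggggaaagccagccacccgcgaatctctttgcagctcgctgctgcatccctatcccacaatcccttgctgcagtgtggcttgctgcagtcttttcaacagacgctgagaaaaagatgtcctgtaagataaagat
Trim37, GRCr8 chr10:72440422-72440721, plus strand: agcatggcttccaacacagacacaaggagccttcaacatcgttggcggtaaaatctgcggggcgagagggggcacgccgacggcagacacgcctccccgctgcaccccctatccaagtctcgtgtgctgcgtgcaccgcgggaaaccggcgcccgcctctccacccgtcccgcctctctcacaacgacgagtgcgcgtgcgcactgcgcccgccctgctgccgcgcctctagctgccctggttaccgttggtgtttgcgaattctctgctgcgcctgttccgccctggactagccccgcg
Trim16, GRCr8 chr10:47985300-47985599, plus strand: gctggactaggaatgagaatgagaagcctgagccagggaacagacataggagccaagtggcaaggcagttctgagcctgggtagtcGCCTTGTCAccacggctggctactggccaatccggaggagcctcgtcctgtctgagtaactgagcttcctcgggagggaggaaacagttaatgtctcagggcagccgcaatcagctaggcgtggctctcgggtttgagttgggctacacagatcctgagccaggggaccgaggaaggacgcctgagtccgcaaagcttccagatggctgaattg
Trim7, GRCr8 chr10:33706364-33706663, plus strand: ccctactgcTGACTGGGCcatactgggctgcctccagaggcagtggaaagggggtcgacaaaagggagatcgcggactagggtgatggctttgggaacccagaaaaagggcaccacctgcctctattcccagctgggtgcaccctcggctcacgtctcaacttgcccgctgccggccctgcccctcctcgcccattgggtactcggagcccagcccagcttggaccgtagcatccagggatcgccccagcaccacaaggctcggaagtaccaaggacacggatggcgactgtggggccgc
Trim26, GRCr8 chr20:1736262-1736561, minus strand: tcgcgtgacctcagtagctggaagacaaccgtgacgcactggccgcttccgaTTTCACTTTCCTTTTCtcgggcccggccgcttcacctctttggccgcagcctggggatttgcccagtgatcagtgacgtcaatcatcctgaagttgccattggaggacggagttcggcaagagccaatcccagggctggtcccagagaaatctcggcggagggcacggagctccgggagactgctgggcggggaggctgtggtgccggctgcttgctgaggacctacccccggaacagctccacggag
Trim21, GRCr8 chr1:166399322-166399621, minus strand: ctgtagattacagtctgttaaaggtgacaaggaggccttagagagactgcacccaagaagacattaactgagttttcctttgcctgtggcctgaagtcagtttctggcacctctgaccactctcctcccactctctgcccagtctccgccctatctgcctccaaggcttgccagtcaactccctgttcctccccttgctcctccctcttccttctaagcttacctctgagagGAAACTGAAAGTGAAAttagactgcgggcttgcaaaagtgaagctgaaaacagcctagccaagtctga
The antioxidant motif was found in 3 of the 41 member promoters, 7.32%, against 12.2% of 27457 promoters of the same length. The 3 were Trim16, which rose, Trim7, which fell, and Trim66, which did not pass. In Trim16 the match lies on the opposite strand with its leftmost base at -164 from the start, in Trim7 at -241 and in Trim66 at -63. The interferon motif was found in 3 member promoters, 7.32%, against 3.77% of all: Trim26, which rose, Trim21, which fell, and Trim34, which did not pass. Each of these 3 holds a pair of overlapping matches, at -18 and -12 in Trim21, at -198 and -192 in Trim26 and at 11 and 17 in Trim34. The matches in Trim26 and Trim34 lie on the opposite strand, and their positions are those of the leftmost base. The search found neither motif in the windows of Trim2 and Trim37. The median GC content was 58.7% in 7 promoters of members that rose, 60.0% in 9 of members that fell and 59.4% in 16 of members that did not pass. It was 59.0% over the 41 member promoters and 52.3% over all promoters.

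Trim2 (gene ID 361970) carries NHL repeats and is known as a ligase for neurofilament light chain in neurons. It was at 37.7 and 32.8 CPM with vehicle and 70.4 and 78.6 CPM with carfilzomib, and the groups lie far apart. It rose 2.11-fold, from 35.3 ± 3.46 to 74.5 ± 5.78 CPM (mean ± SD, n = 2). Its log2 fold change was 1.08 ± 0.08 (SE; edgeR adjusted p 3.09e-08). The other tested members with NHL repeats, Trim3 and Trim32, did not pass. Trim3, a ligase of neurons, was at 38.6 and 37.1 CPM with vehicle and 38.1 and 37.2 CPM with carfilzomib. Trim32, mutated in a limb-girdle muscular dystrophy, was at 41.0 and 37.8 CPM with vehicle and 36.0 and 38.8 CPM with carfilzomib. Their 95% intervals, from -0.14 to 0.12 for Trim3 and from -0.22 to 0.07 for Trim32 on the log2 scale, lie wholly below the interval of Trim2, whose lower bound is 0.91. Differences between genes were not tested beyond these intervals.

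Trim37 (gene ID 360592) carries a MATH domain; it limits the formation of centrioles, and its loss causes mulibrey nanism, a disorder that also affects the heart. It was at 54.1 and 53.5 CPM with vehicle and 94.5 and 100 CPM with carfilzomib. It rose 1.81-fold (log2 fold change 0.85 ± 0.06 SE, edgeR adjusted p 7.62e-09). Trim37 has split reads, meaning estimated counts with decimals in at least 1 library, as have 11 of the 50 members and 4 of the 18 called ones. In the RefSeq gene table (GRCr8) Trim37 overlaps Ppm1e, which was at 7.16 and 7.57 CPM with vehicle and 5.92 and 5.56 CPM with carfilzomib, below Trim37 in every library.

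Trim16 and Trim23 are linked to autophagy. Trim16 (gene ID 303214) lacks a RING finger and works with galectin-3 at damaged lysosomes. It was at 19.9 and 21.2 CPM with vehicle and 29.3 and 30.0 CPM with carfilzomib, a rise of 1.44-fold with an edgeR adjusted p of 1.82e-05. Trim23 (gene ID 81002), which carries an ARF GTPase domain and activates the kinase TBK1, was at 27.7 and 29.7 CPM with vehicle and 38.8 and 42.1 CPM with carfilzomib. It rose by a log2 fold change of 0.49 ± 0.07 (SE), with an edgeR adjusted p of 1.87e-05. For both genes every treated library lay above every vehicle library. The other tested members without a RING, Trim14, Trim44 and Trim66, did not pass, with log2 fold changes of -0.30, 0.24 and -0.37. Trim44 was at 13.5 and 10.3 CPM with vehicle and 14.8 and 13.2 CPM with carfilzomib, and its groups overlap.

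The 3 members placed in the class with a PHD finger and a bromodomain, domains of chromatin proteins, took different courses. Members without a RING, Trim66 among them, were classed apart, whatever other domains they carry. Trim33, also called TIF1-gamma and known as a ligase for SMAD4, was at 49.7 and 47.9 CPM with vehicle and 60.3 and 64.0 CPM with carfilzomib, a rise of 0.35 ± 0.06 (SE) on the log2 scale with an edgeR adjusted p of 2.13e-04. Trim28 (gene ID 116698) was at 342 and 360 CPM with vehicle and 277 and 271 CPM with carfilzomib. It fell by 0.36 on the log2 scale (SE 0.04), with an edgeR adjusted p of 2.98e-06. Trim24, a ligase for p53, was at 21.8 and 22.1 CPM with vehicle and 21.2 and 21.6 CPM with carfilzomib and did not pass, with an interval from -0.20 to 0.13. The 95% intervals of the 3 genes overlap at no point between Trim28 and either of the others, nor between Trim24 and Trim33. Trim33 has split reads, and Trim28 overlaps Chmp2a in the RefSeq gene table, a gene at 71.4 and 68.8 CPM with vehicle and 67.8 and 64.5 CPM with carfilzomib. The sources used here do not state how reads of overlapping genes were assigned.

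Members placed in the PRY-SPRY class, the largest class and the one most tied to antiviral defence, were called in both directions. Each member was given a single class. Members without a RING, in the class with a COS box or in no class are not counted here, whatever other domains they carry. Of 23 members of the class 17 were tested, 3 rose, 6 fell and 8 did not pass (median log2 fold change -0.10). Of all tested genes 30.6% rose and 30.1% fell. Of this class 3 fell with library size alone, 3 with limma-voom, 2 with DESeq2, 3 without vehicle replicate 2 and 2 with carfilzomib replicate 1, or replicate 2, left out. Trim41, a ligase for protein kinase C, was at 48.0 and 50.1 CPM with vehicle and 61.7 and 55.5 CPM with carfilzomib (log2 fold change 0.26, edgeR adjusted p 0.00418). Trim26, which can mark the interferon factor IRF3 for degradation, was at 57.3 and 56.6 CPM with vehicle and 68.3 and 65.3 CPM with carfilzomib (log2 fold change 0.23, edgeR adjusted p 0.00357). Trim26 has split reads and overlaps Trim15 in the RefSeq gene table. Trim35 was at 133 and 131 CPM with vehicle and 151 and 147 CPM with carfilzomib (log2 fold change 0.18, edgeR adjusted p 0.00282). The 3 rises were 1.19-fold, 1.17-fold and 1.13-fold, and in each gene the treated libraries lay above the vehicle libraries. Without carfilzomib replicate 1, the call of Trim41 was lost (log2 fold change 0.18, edgeR adjusted p 0.0732), as was that of Trim35 (0.16, edgeR adjusted p 0.0578).

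Among the PRY-SPRY members that fell, Trim62 and Trim47 were called under all 11 alternatives to the analysis. Trim62, a regulator of cell polarity, was at 23.7 and 26.9 CPM with vehicle and 15.7 and 16.4 CPM with carfilzomib (log2 fold change -0.66 ± 0.09 SE, edgeR adjusted p 1.18e-05). Trim47, the second most abundant member with vehicle, was at 107 and 130 CPM with vehicle and 91.3 and 82.1 CPM with carfilzomib (log2 fold change -0.45, edgeR adjusted p 0.0194). Its 2 vehicle libraries differ more from each other than the 2 treated ones do. Trim21, the cytosolic antibody receptor, was at 14.4 and 11.4 CPM with vehicle and 10.1 and 10.6 CPM with carfilzomib (log2 fold change -0.32, edgeR adjusted p 0.0391). Trim7, which binds glycogenin, was at 13.7 and 13.6 CPM with vehicle and 10.8 and 11.7 CPM with carfilzomib (log2 fold change -0.28, edgeR adjusted p 0.0302). The calls of Trim21 and Trim7 were lost under DESeq2, with adjusted p of 0.266 and 0.290. Without vehicle replicate 1 the call of Trim21 was lost as well (log2 fold change -0.13). In all, Trim21 lost its call in 7 of the 11 alternatives and Trim7 in 6.

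The remaining PRY-SPRY members that fell were low. Trim68, a coactivator of the androgen receptor, was at 4.09 and 7.09 CPM with vehicle and 3.72 and 3.18 CPM with carfilzomib (log2 fold change -0.70, edgeR adjusted p 0.0316). Vehicle replicate 2 stands far above the other 3 libraries in this gene, and without it the log2 fold change was -0.25 with an edgeR adjusted p of 0.406. Trim6, which builds free ubiquitin chains in interferon signalling, was at 3.61 and 3.46 CPM with vehicle and 2.62 and 2.38 CPM with carfilzomib, a log2 fold change of -0.50. Its edgeR adjusted p of 0.0496 lay just under the threshold, and the call was lost in 9 of 11 alternatives.

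Both tested members of the class with a COS box and a fibronectin domain, which binds microtubules, fell. Of all tested genes 30.1% fell, and with DESeq2 0 members of this class were called lower. Trim46, which bundles microtubules at the start of the axon, was at 2.42 and 2.06 CPM with vehicle and 1.31 and 1.27 CPM with carfilzomib (log2 fold change -0.79, edgeR adjusted p 0.0203). Trim36 was at 5.11 and 4.54 CPM with vehicle and 2.41 and 3.71 CPM with carfilzomib (log2 fold change -0.66, edgeR adjusted p 0.0136). Both are low genes, and DESeq2 gave adjusted p of 0.242 for Trim46 and 0.159 for Trim36. Without carfilzomib replicate 1 Trim36 had a log2 value of -0.38 (edgeR adjusted p 0.181), and without vehicle replicate 1 its call was lost too. Trim46 lost its call whichever single library was left out. Trim46 has split reads and overlaps Krtcap2 in the RefSeq gene table, a more abundant gene whose log2 fold change was -0.43. Of the 2 members with a transmembrane segment, Trim59 fell from 36.8 and 33.4 CPM to 27.7 and 29.9 CPM (log2 fold change -0.28, edgeR adjusted p 0.0033). DESeq2 gave it an adjusted p of 0.0759. Trim13, which sits in the membrane of the endoplasmic reticulum, was at 5.28 and 3.79 CPM with vehicle and 5.13 and 5.08 CPM with carfilzomib and did not pass.

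**Figure D3:**
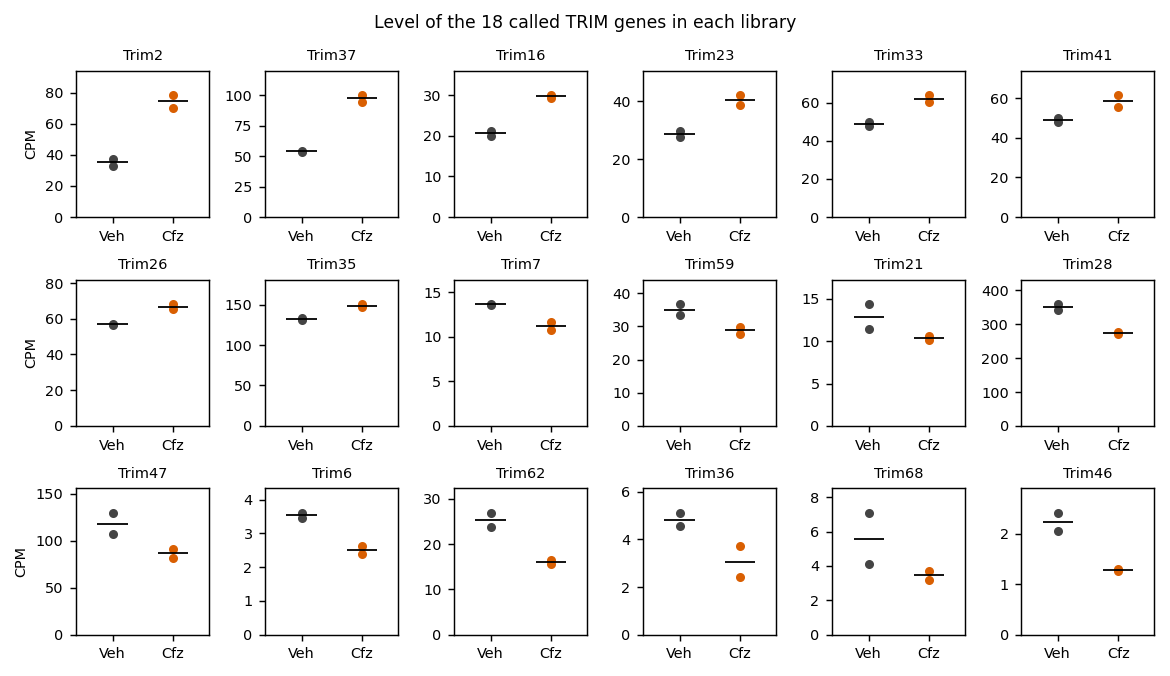
CPM of the 18 called TRIM genes in each library, vehicle (Veh) in dark grey and carfilzomib (Cfz) in orange, with a line at the mean of each group and axes that start at 0. In every panel the 2 groups are apart, by the widest margin relative to level in Trim2 and Trim37, while Trim68 and Trim36 show a wide spread within a group.

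Several abundant members with known roles in innate immunity and growth control did not pass. Trim25, the ligase that activates the RNA sensor RIG-I, was at 36.3 and 33.3 CPM with vehicle and 35.4 and 36.0 CPM with carfilzomib. Trim8 was at 103 and 109 CPM with vehicle and 114 and 109 CPM with carfilzomib, and Trim27 at 59.6 and 63.2 CPM against 57.7 and 57.2 CPM. Trim5, which blocks retroviral capsids, was at 37.2 and 35.1 CPM with vehicle and 37.0 and 41.9 CPM with carfilzomib. Of these 4 genes only Trim27 had groups that do not overlap, with both treated libraries lower. Trim11 was at 25.3 and 24.5 CPM with vehicle and 24.6 and 21.6 CPM with carfilzomib. Trim65, a ligase for the RNA sensor MDA5, was at 20.1 and 22.1 CPM with vehicle and 20.6 and 20.3 CPM with carfilzomib. For 15 of the 20 members that did not pass, the 95% interval stayed within a 1.5-fold change either way. Over the 20 the log2 fold changes ran from -0.43 for Trim30 to 0.24 for Trim44, and the intervals reached from -1.26 to 1.01. The others that did not pass were Trim13, Trim14, Trim15, Trim31, Trim34, Trim39, Trim45, Trim66 and Trim80.

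The 12 members that were not tested were nearly silent in these cells. Their highest count in any library was 17, in Trim50, and their highest level was 0.47 FPKM. They were Trim9, Trim10, Trim17, Trim29, Trim30c, Trim43a, Trim50, Trim52, Trim58, Trim67, Trim69 and Trim71. Trim71, a stem cell ligase with NHL repeats, had 2 and 3 counts with vehicle and 14 and 3 counts with carfilzomib, so that 1 treated library stands apart. Trim52 had 1 count in vehicle replicate 1 and 0 in the other libraries, and Trim30c had 0 counts with vehicle and estimated counts of 0.88 and 0.38 with carfilzomib. A count of 0 allows up to 3 counts, counting error alone.

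Several members lie side by side in the genome. In the RefSeq gene table Trim6, Trim34, Trim5, Trim30c and the gene listed here as Trim30 follow one another on chromosome 1, a cluster of near relatives whose reads may be hard to tell apart. Of these Trim6 fell, Trim34, Trim5 and Trim30 did not pass and Trim30c was not tested. On chromosome 10 Trim41 and Trim7 are neighbours, and the former rose while the latter fell. Also on chromosome 10, Trim47 fell and its neighbour Trim65 did not pass, and Trim17 was too low to be tested beside Trim11. On chromosome 20 Trim26 rose, its neighbour Trim15 did not pass and Trim10 was not tested. Of the members, 22 overlap another gene there, and 7 of the 22 were called: Trim2, Trim26, Trim28, Trim36, Trim37, Trim46 and Trim47. Some of the 22, such as Trim10 and Trim17, were not tested. Calls were made for 47.4% of all tested members and 60.7% of all tested genes.

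Of 8 TRIM relatives that carry other symbols 7 were tested, 1 rose, 4 fell and 2 did not pass (median log2 fold change -0.41). Over all tested genes 60.7% were called, 30.6% higher and 30.1% lower. Cmya5, a large muscle protein, and Fsd2, a related muscle gene, had the largest falls, with log2 fold changes of -1.29 and -1.16. Mid1, a microtubule-bound ligase, was at 27.2 and 24.7 CPM with vehicle and 15.6 and 17.4 CPM with carfilzomib, with -0.65, and Pml, which forms nuclear bodies, had -0.17. Mid2, the close relative of Mid1, rose, from 26.2 and 25.9 CPM with vehicle to 29.8 and 29.5 CPM with carfilzomib (log2 fold change 0.19, edgeR adjusted p 0.0248). Mid2 was the 1 relative called higher, and 0 relatives were called higher with DESeq2 or in each of the 4 fits without a single library. The opposite calls of the 2 MID genes were therefore lost in those alternatives.

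The E2 enzymes that RING ligases draw on were called in both directions. Of 11 such genes 6 rose, 3 fell and 2 did not pass (median log2 fold change 0.14), where 60.7% of all tested genes were called, 30.6% higher and 30.1% lower. Ube2e1, Ube2v2, Ube2d3, Ube2d2, Ube2k and Ube2v1 rose, by log2 fold changes of 0.40, 0.29, 0.26, 0.21, 0.18 and 0.14. Ube2e2, Ube2d1 and Ube2e3 fell, with -0.44, -0.31 and -0.25. Within the UBE2D and the UBE2E groups, members thus moved in both directions. Ube2d2, Ube2d3 and Ube2e3 have split reads, and Ube2d1, Ube2e1 and Ube2e2 do not. With DESeq2, 6 of the 11 genes were called higher and 2 lower.

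Partners of Trim28 in gene silencing were split. Of 11 genes 3 rose, 4 fell and 4 did not pass (median log2 fold change -0.06), where 60.7% of all tested genes were called, 30.6% higher and 30.1% lower. Setdb1, the histone methyltransferase that Trim28 recruits, was at 61.3 and 58.1 CPM with vehicle and 81.3 and 78.0 CPM with carfilzomib, a log2 fold change of 0.42. Atf7ip, which stabilises Setdb1, had 0.34 and the chromatin remodeller Chd4 had 0.12. The heterochromatin proteins Cbx1 and Cbx3 fell, with -0.28 and -0.26, as did Morc2 with -0.20 and the zinc finger protein Zfp57 with -0.72.

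Genes of antiviral sensing, in which Trim25, Trim21, Trim26 and Trim65 act, also split. Of 18 genes 7 rose, 7 fell and 4 did not pass (median log2 fold change 0.05), where 30.6% of all tested genes rose and 30.1% fell. With DESeq2, 4 of these genes were called lower. Tbk1, the kinase activated through Trim23, was at 32.8 and 32 CPM with vehicle and 84.8 and 82.7 CPM with carfilzomib (log2 fold change 1.37 ± 0.06 SE, edgeR adjusted p 7.29e-11). Isg15, a ubiquitin-like protein induced by interferon, had 1.15, Sting1 0.75, Ikbke 0.70, Traf3 0.44 and Map3k7 0.22. The sensors Ifih1, Cgas and Ddx58 fell, with -0.57, -0.52 and -0.48, as did Mavs with -0.44, Stat2 with -0.40, Irf9 with -0.36 and Tab2 with -0.14. The sensors Ifih1, Cgas and Ddx58 and the adaptor Mavs were thus lower, while Sting1, Traf3 and the kinases Tbk1, Ikbke and Map3k7 were higher. Irf3, Irf7, Traf6 and Tab1 did not pass.

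**Figure D4:**
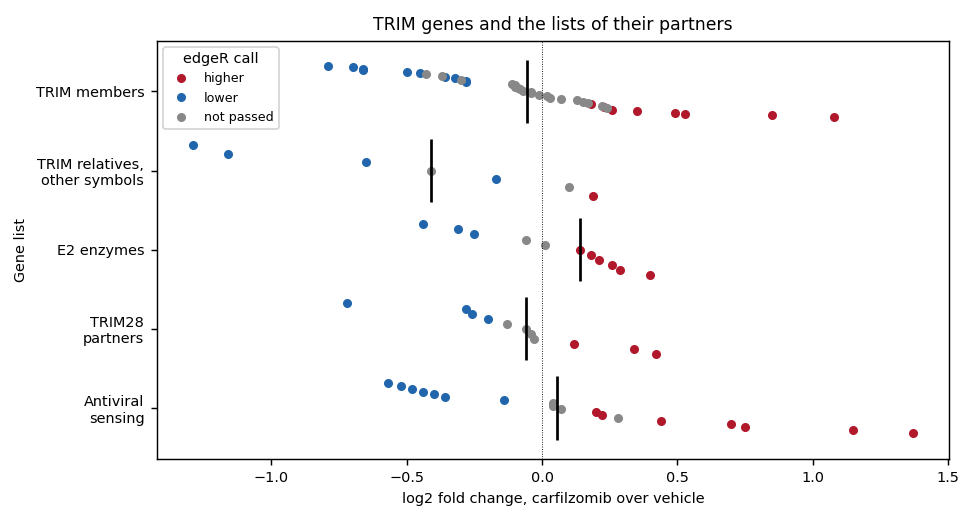
Log2 fold change of each tested gene, carfilzomib over vehicle, for the TRIM members and 4 lists of related genes; points are coloured by edgeR call and black lines mark the median of each list, and the height within a list only spreads the points. The medians are -0.06 for TRIM members, -0.41 for TRIM relatives, 0.14 for E2 enzymes, -0.06 for Trim28 partners and 0.05 for antiviral sensing.

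Of the 18 called members, 9 stayed called under all 11 alternatives: Trim2, Trim37, Trim16, Trim23, Trim33, Trim26, Trim28, Trim47 and Trim62. The other 9 lost the call in at least 1 alternative, and 0 of the 18 changed sign in any. All 11 alternatives used the same estimated counts, with reads split as deposited. The authors' deposited table lists 11 of the 50 members, against 32.4% of all genes in the expression table. It gives 8 of them as higher and 3 as lower, and these are the same 8 that rose here and 3 of the 10 that fell, Trim28, Trim47 and Trim62. Its q-values come from DESeq2 on the same comparison in this series. The DESeq2 alternative here also called 8 higher and 3 lower, so the match is not an independent result. In the authors' deposited table Trim2 has a log2 fold change of 1.08 with a q-value of 7.48e-21.

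**Figure D5:**
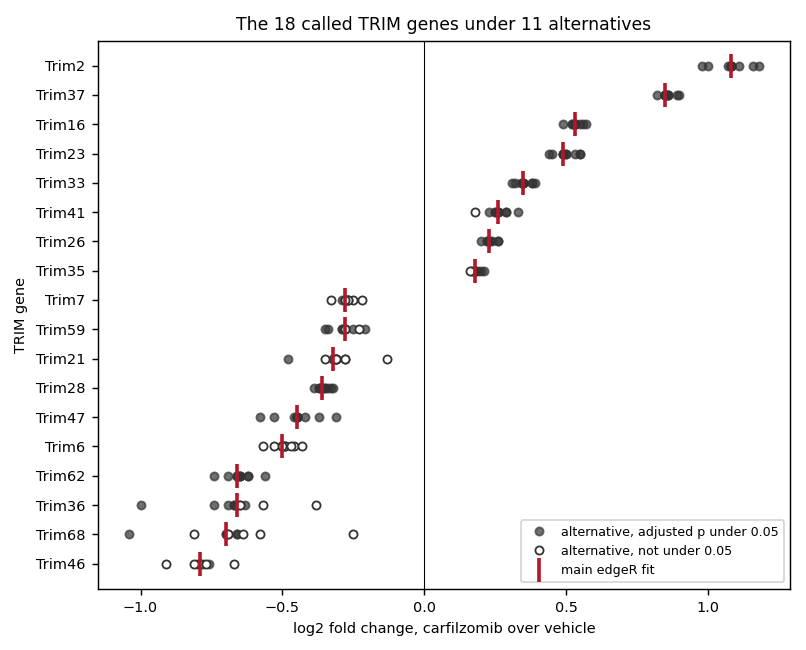
Log2 fold change of the 18 called TRIM genes under 11 alternatives to the analysis; the red bar is the edgeR fit of all libraries, filled points have an adjusted p under 0.05 and open points do not. Genes from Trim2 to Trim33 and Trim26, Trim28, Trim47 and Trim62 have filled points throughout. The low genes Trim6, Trim36, Trim46 and Trim68 hold open points, and so do Trim7, Trim21, Trim35, Trim41 and Trim59.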

How the data were processed

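The 4 libraries were made from total RNA of cultured ventricular myocytes. Groups and replicate numbers came from the sample titles; columns named as control were assigned to the vehicle sample with that number, the labels naming no other control. Per the file headers the authors deposited unnormalised estimated counts, of which 28.5% to 28.9% per library are not whole (tolerance 1e-06). They also deposited FPKM values per the file headers, used here only to set genes side by side. A further table by the authors, per the file headers, holds a log2 fold change and a DESeq2 p-value and q-value per gene. The tools named per the submitters' processing notes are HISAT and Bowtie2, featureCounts 1.6.0, FastQC 0.11.8, cutadapt 2.0, R 3.3.2 and DESeq2, and the build was Rnor 6.0; for their roles and the strand setting, the sources used here give nothing. Another 10 columns of expression values were not used.

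Counts were rounded and tested with edgeR 4.0.16 in R 4.3.3 (filterByExpr at 10 counts, 15 in total, TMM, robust quasi-likelihood F test, Benjamini-Hochberg over 14519 genes at 0.05). The common biological coefficient of variation was 0.0465. Standard errors were derived from F and the fold change, and intervals are at 95%. Between replicates the chi-square over its degrees of freedom was 3.32 (vehicle) and 2.99 (carfilzomib), so they differ beyond sampling noise. Scripts were tested on simulated counts. The alternatives were RLE factors, library size alone, DESeq2 1.42.0, limma-voom (limma 3.58.1), no low-count filter, a stricter filter (1 CPM in at least 2 libraries, 50 counts overall), a replicate block and each of the 4 libraries left out.

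Members, structural classes and lists were chosen with earlier results of these data known. All 50 members are named; per-library CPM are given for called members with a mean of at least 5 CPM and for others with at least 20 CPM, and those of lower members were chosen after their values were seen. All 83 list entries were matched, 1 of them through the RefSeq gene table; the values of 1 list gene are not reported here. That table matched all 50 members by gene ID; 1, Trim30, has another symbol there. Promoters came from the same source (GRCr8).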

Additional observations from a re-analysis of the deposited data

How the results depend on the processing

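The 8 members that rose were the same 8 with RLE factors, library size alone, DESeq2, limma-voom, both other filters and the replicate block, and between 7 and 9 were higher when 1 library was left out. The number that fell was less stable: 3 with DESeq2, 7 with library size alone or limma-voom, 9 without the low-count filter, and 3 to 6 when 1 library was left out, against 10 in the main fit. Over all genes DESeq2 also called fewer, 3276 higher and 2968 lower against 4444 and 4368, or 41.5% against 60.7% of genes given an adjusted p. It was 6 with either vehicle library left out, 3 when carfilzomib replicate 1 was and 5 when carfilzomib replicate 2 was; the cause was not tested. Among members with whole counts in all libraries, of which 29 were tested, 5 rose and 9 fell, with a median log2 fold change of -0.08; fewer genes enter there. The median was -0.03 with library size alone, -0.07 without the low-count filter, and -0.06 to -0.03 when 1 library was left out, against a spread between replicates of 0.01. With library size alone the median of all genes was 0.04. Over single members, 373 of 414 values kept their side of the threshold, 39 lost a call, 2 gained one and 0 turned; the 2 gained were Trim44 without vehicle replicate 1 and Trim5 without carfilzomib replicate 1. Trim50 and Trim71, not tested in the main fit, were each called with 1 library left out. Trim50 had a log2 fold change of -1.78 without vehicle replicate 1, and Trim71 had 2.39 without carfilzomib replicate 2. The lone library left in that group held 17 counts for Trim50 and 14 for Trim71, the highest count of each gene in any library. Where a library is left out, the lone library of its group is assumed to vary like the other group.

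The replicate numbers are not said to mark a shared batch, and the correlation of same-numbered deviations was -0.0709 over 11731 genes. With the replicate block 8 members rose and 8 fell. Depth limits the low members: 12 of 50 could not be tested.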
